A study of Mus musculus with 8 samples.

Results

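The cytosolic ribosomal protein genes were compared between sorted G0 and G1 mouse fibroblasts. A gene was taken when a probe set named it alone and its symbol began with Rpl or Rps followed by a digit, or was Rpsa, Rplp0, Rplp1 or Rplp2. The 6 ribosomal S6 kinase genes and 1 pseudogene were left out. This gave 50 genes on 106 probe sets, out of 18193 named genes and 45037 probe sets that were not controls. They comprised 22 large subunit genes on 42 probe sets, 21 small subunit genes on 53 probe sets, and 7 paralogs or genes of similar name on 11 probe sets. The 43 large and small subunit genes are called the core genes here. Rplp1, Rpl5, Rpl23, Rpl26 and Rps27a had no probe set of their own. A further 110 probe sets that list a ribosomal protein together with another gene were kept apart.

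All 8 Affymetrix arrays held total RNA of NIH3T3, an established mouse fibroblast line, transduced with 2 reporters that every sample carried. The first was mVenus fused to p27K-, a form of the cell cycle inhibitor p27 that no longer acts on cyclin-dependent kinases. The second was mCherry-hCdt1(30/120), a fragment of Cdt1 that accumulates before S phase. Cells were starved of serum, returned to 10% serum for 5 h and sorted. The G0 group was mVenus(+)/mCherry(+) and the G1 group mVenus(-)/mCherry(+), with 4 arrays each. Both groups therefore came from serum-fed cultures, and neither was left in starvation. The labels do not say whether the transduced cells were 1 clone, nor whether the replicates came from separate cultures, so the p-values measure the spread between these arrays, which may be technical. In sorted bulk samples, fewer cells of a type and less RNA per cell cannot be told apart.

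A cytosolic ribosome joins a small subunit, which reads the mRNA, to a large subunit, which forms the peptide bond. Each subunit holds a single copy of nearly all its proteins, and cells make them in balanced amounts. The mRNAs of ribosomal proteins start with a C followed by a run of pyrimidines, the terminal oligopyrimidine or TOP motif. Through it, the kinase mTORC1 and the RNA-binding protein Larp1 govern how fully these mRNAs are translated when fibroblasts are fed or starved of serum. An array reads the amount of mRNA and not this translation.

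The bases around the annotated transcription start show this motif in part of the genes, as given by RefSeq on the mouse build GRCm38.p6. Each line below runs 5′ to 3′ along the gene's own strand, from 10 bases before the annotated start to the 20 bases that begin with it. Capitals mark a pyrimidine run, defined as C followed by C or T for at least 5 bases in all, counted from no more than 5 bases from the annotated start. Pyrimidines before that window are not counted, so the tracts of Rpl7a and Rpl35 reach further upstream than their capitals. The first 8 genes are shown because they carry a run of at least 9 bases and differ in their values on the arrays. The last 4 are shown because no such run lies there and they include the smallest and the largest differences described further on.
Rpl13a (chr7:45128726-45128755, minus strand): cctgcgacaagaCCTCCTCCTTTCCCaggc
Rplp2 (chr7:141447641-141447670, plus strand): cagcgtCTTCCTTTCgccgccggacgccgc
Rpl7a (chr2:26910797-26910826, plus strand): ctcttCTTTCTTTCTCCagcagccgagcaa
Rpl27a (chr7:109519185-109519214, plus strand): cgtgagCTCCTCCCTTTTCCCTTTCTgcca
Rpl35 (chr2:39005112-39005141, minus strand): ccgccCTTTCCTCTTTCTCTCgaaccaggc
Rps6 (chr4:86857348-86857377, minus strand): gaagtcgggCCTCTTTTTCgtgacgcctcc
Rps18 (chr17:33955646-33955675, minus strand): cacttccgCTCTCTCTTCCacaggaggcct
Rps27 (chr3:90213629-90213658, minus strand): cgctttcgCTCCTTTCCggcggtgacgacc
Rplp0 (chr5:115559457-115559486, plus strand): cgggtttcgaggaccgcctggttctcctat
Rpl11 (chr4:136053374-136053403, minus strand): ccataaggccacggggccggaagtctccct
Rps3 (chr7:99483690-99483719, minus strand): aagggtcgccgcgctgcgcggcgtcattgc
Rpsa (chr9:120127756-120127785, plus strand): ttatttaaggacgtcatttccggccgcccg

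The promoter table held an entry for 44 of the 50 genes, 38 of them core genes, which had 44 promoters in all. A pyrimidine run was found in 19 of these 44 core promoters (43.2%), against 18.6% of 21263 promoters of protein-coding genes. The longest as counted here, of 20 bases, was in Rpl27a. In the 300 bases from 250 before to 50 after the start, read on both strands, CCGGAAG was found in 19 of 44 core promoters (43.2%), against 11.6% of all. These letters are the core of the binding motif of ETS factors, and they also appear in the printed bases of Rpl11. AAGATGG, the core of the Yy1 motif, was in 7 (15.9%) against 6.24%. The TATA box letters TATAAA were in 5 (11.4%) against 12.6%, and the E-box CACGTG was in 5 (11.4%) against 7.84%. CCGGAAG and AAGATGG can share the letters AAG. A match describes letters in a window, not a bound site. Annotated starts can lie some bases from the start a cell uses, so the absence of a run says only that these letters were not in that window.

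The median of every probe set across all 8 arrays was 0 in the deposited values. They are therefore given as log2 expression relative to the probe set median, where 0 is that median. The log base is not stated and is taken as 2. No gene's level can be set against another's, and a marker's presence in NIH3T3 could not be read from these values. Arrays also differed in ways the groups do not explain. The labels put replicate 4 of each group on another labelling kit revision. The poly-A spike-in controls, however, were low on G0 replicate 3 (median -6.73) and G1 replicate 4 (-7.30), and the 18S rRNA controls were low on the same arrays (-5.70 and -5.57). On those arrays the 5′ actin control was high, at 1.00 and 1.25. Values on those arrays minus the other 6 had a median of 0.08 over core genes, -0.05 over core probe sets and 0.17 over all genes. Results with those arrays set apart as a batch, and without them, are given further on. What made those arrays differ was not tested. Of 10 fibroblast markers, 8 were lower in G1, with a median G1 minus G0 difference of -0.21. Col3a1, a fibrillar collagen, differed by -0.72 with a 95% interval of -1.21 to -0.23 and groups that did not overlap (adjusted p of 0.432, limma). Pecam1, an endothelial adhesion protein, differed by 1.16 with a 95% interval of 0.13 to 2.20 (adjusted p of 0.640, limma). The other endothelial markers had negative differences, -0.94 for Cdh5 and -0.06 for Kdr. None of the 10 fibroblast, 4 leukocyte, 4 epithelial and 3 endothelial markers passed the threshold of an adjusted p of 0.05, against 0.522% of all genes. The part of these markers in the results was not tested.

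No ribosomal protein gene passed the test between G1 and G0. Differences are G1 minus G0 on the log2 scale, from a limma fit with the labelled batch as a covariate, and the threshold is a Benjamini-Hochberg adjusted p of 0.05 over all probe sets. Of the 50 genes, 0 passed, and the lowest adjusted p was 0.762 (limma), for Rps20. Over all genes 95 of 18193 passed (0.522%), 91 of them higher and 4 lower in G1. With 50 genes, a count of 0 is near that share. At an unadjusted p under 0.05 the count was again 0 of 50, against 8.07% of all genes. No gene of the 50 had G0 and G1 arrays that did not overlap, against 7.07% of all genes. With the arrays that lack the spike-ins as the batch, 0 of 50 passed, against 1.01% of all genes, and 1 reached an unadjusted p under 0.05, against 12.4%. That gene was Rpsa, the laminin receptor homologue of the small subunit.

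The differences were small and most were positive. The median over the 43 core genes was 0.13, or 1.09-fold, with 34 of 43 above 0 (79.1%). Over all genes the median was -0.06, and 44.7% were above 0. The middle part of the core genes, between the quartiles, ran from 0.03 to 0.15, and the whole range from -0.50 (Rps3) to 1.19 (Rpsa). A difference within 0.25 of 0 was measured for 32 of 43 core genes, against 39.6% of all genes. The 95% interval of the difference lay within 1 log2 unit of 0 for 34 of the 43, against 32.4% of all genes, and within 0.5 for 1, Rps7, against 1.53%. For those 34 genes a difference beyond 1 log2 unit lay outside the interval, while smaller differences of either sign lay inside it. The core median was 0.05 within labelled batch 1 (3 arrays against 3) and 0.32 within batch 2 (1 against 1). Over all genes the same medians were -0.11 and 0.15, and over the core probe sets 0.09 and 0.11. By the spike-in split the core median was 0.09 and 0.16, and that of all genes -0.07 and -0.02.

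**Figure D1:**
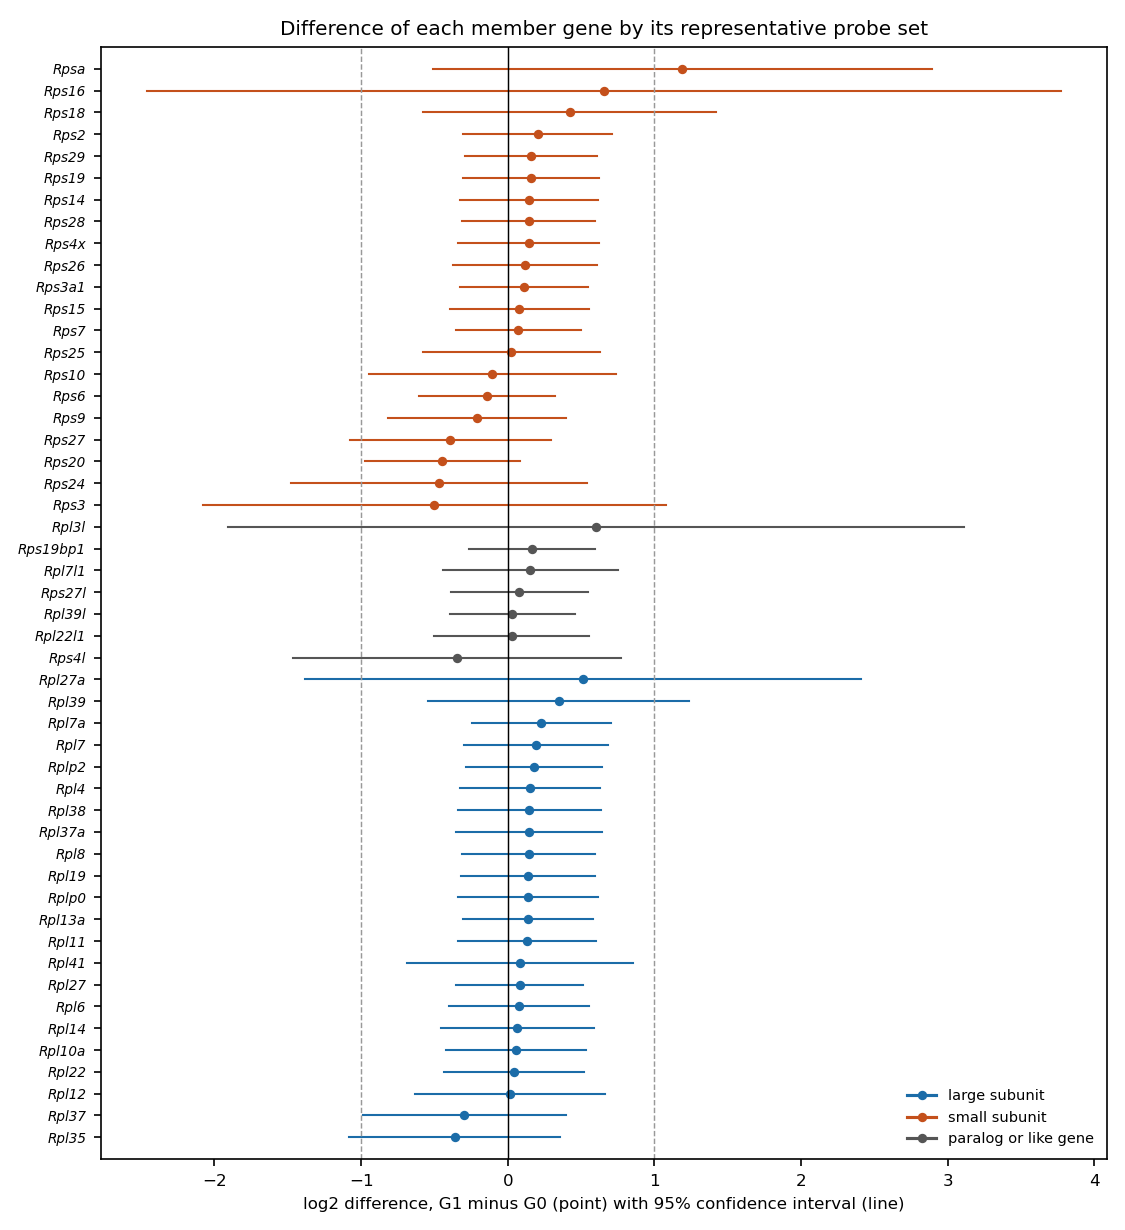
Each line gives 1 of the 50 genes by its representative probe set, with the G1 minus G0 difference in log2 units as a point and its 95% interval as a line, by subunit. All 50 intervals include 0, and 34 of the 43 core genes have an interval inside the dashed lines at -1 and 1, while Rps16, Rpsa, Rps3 and Rpl27a have among the widest.

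The array medians overlapped between the groups. Over the core genes they were -0.17, 0.08, -0.04 and -0.10 in G0 replicates 1 to 4. In G1 replicates 1 to 4 they were 0.04, 0.04, -0.03 and 0.10. The means were -0.06 ± 0.10 (SD, n = 4) in G0 and 0.04 ± 0.06 (SD, n = 4) in G1. G0 replicates 1 and 4 were the lowest arrays and G1 replicate 4 the highest, while G0 replicate 2 lay above 3 of the G1 arrays. The difference of the group means, 0.09, was close to the SD of the arrays within groups, 0.08.

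The large and small subunit genes had nearly the same median difference. The median difference was 0.14 over the 22 large subunit genes, 20 of them above 0. It was 0.11 over the 21 small subunit genes, 14 of them above 0. Large minus small came to 0.03 over genes and 0.01 over all probe sets. On single arrays the large subunit median minus the small subunit median was -0.07, 0.07, -0.04 and -0.11 in G0. It was 0.04, 0.00, 0.04 and 0.01 in G1. The G0 arrays scattered on both sides of 0 (mean -0.04 ± 0.08, SD, n = 4) and the G1 arrays lay inside their range (0.02 ± 0.02, SD, n = 4). The sign also depended on which probe set stood for a gene, since the probe set with the smallest spread gave -0.01.

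**Figure D2:**
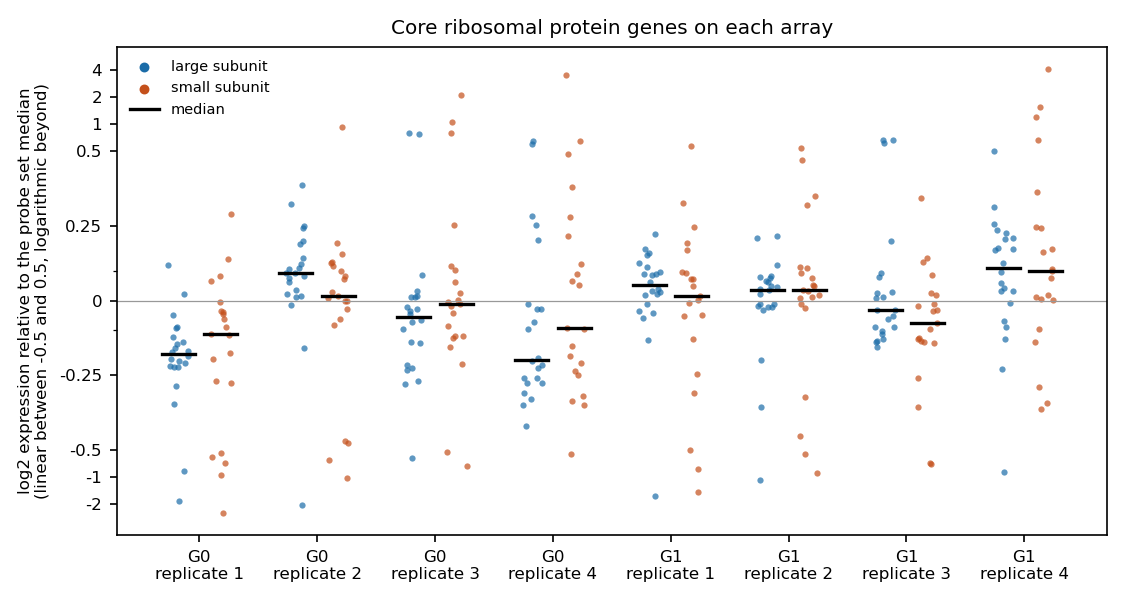
Points are the 43 core genes on each of the 8 arrays, as log2 expression relative to the probe set median on an axis that is linear between -0.5 and 0.5 and logarithmic beyond, with large and small subunit genes apart and a bar at each median. The bars lie between -0.20 (large subunit, G0 replicate 4) and 0.11 (large subunit, G1 replicate 4), and the G0 and G1 bars overlap.

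Among large subunit proteins, the stalk genes were close to the group as a whole. Rplp0, which anchors the stalk that recruits elongation factors, was at -0.14, 0.01, 0.01 and -0.31 in G0 and at 0.11, -0.01, -0.14 and 0.17 in G1. Rplp2, an acidic stalk protein, was at -0.05, 0.14, -0.23 and -0.28 in G0 and at 0.22, 0.08, -0.03 and 0.03 in G1. In both genes G0 replicate 4 was the lowest array, and the groups overlapped. The differences were 0.14 ± 0.20 (SE) for Rplp0 and 0.18 ± 0.20 (SE) for Rplp2.

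Rpl11, which binds Mdm2 when ribosome assembly fails, differed by 0.13 with a 95% interval of -0.34 to 0.60. It was at -0.19, 0.20, -0.22 and -0.01 in G0 and at 0.15, 0.21, 0.01 and -0.07 in G1. Only G0 replicates 1 and 3 lay clearly below the G1 arrays. Rpl13a, known for a role outside the ribosome in silencing inflammatory mRNAs, differed by 0.14 by its representative probe set. All 4 of its probe sets had positive differences, from 0.09 to 0.23. On 1 of them, with the suffix _x_at, the groups did not overlap, with G0 at -0.04, -0.06, -0.07 and -0.09 and G1 at 0.27, 0.23, 0.04 and 0.09. This was the only 1 of the 95 core probe sets with separate groups, against 6.06% of all probe sets, and its adjusted p was 0.870 (limma). At the threshold, 0 of the 95 passed, against 0.4% of all probe sets, and a count of 0 is near that share.

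Rpl7a, a protein of the large subunit that binds rRNA, had the sixth highest difference of the core genes at 0.23, with a 95% interval of -0.24 to 0.70. Its G0 arrays stood at -0.17, 0.09, -0.14 and -0.26, and its G1 arrays at 0.09, 0.12, -0.09 and 0.31. G0 replicate 2 lay among the G1 arrays. Rpl39, a small protein of the peptide exit tunnel, differed by 0.35 on 1 probe set with a wide spread. It was at -0.87, -0.16, 0.78 and -0.42 in G0. The G1 arrays, at 0.02, -0.02, 0.66 and 0.06, lay inside that range. The difference was 0.08 without G0 replicate 1 and 0.66 without G0 replicate 3.

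Rpl27a had 1 of the largest positive differences, 0.51, and also 1 of the largest spreads. It was at -1.85, -2.06, 0.81 and -0.03 in G0 and at -1.66, 0.06, 0.03 and 0.50 in G1. Very low values occurred in both groups. The difference was 0.15 without G0 replicate 2, 0.23 without G0 replicate 1, 0.91 without G1 replicate 1 and 1.16 without G0 replicate 3. Its other probe set gave 0.07.

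The lowest large subunit differences were those of Rpl35 (-0.36), which sits at the exit of the tunnel, and Rpl37 (-0.30), a zinc finger protein. Rpl35 was at 0.12, 0.08, -0.23 and 0.25 in G0 and at -0.13, -1.09, -0.03 and 0.03 in G1, where replicate 2 alone was far below the rest. Without that array the difference was -0.12. Its other 5 probe sets gave differences from 0.05 to 0.11. Rpl37 was at 0.02, 0.39, -0.28 and 0.28 in G0 and at -0.06, -0.02, 0.20 and -0.89 in G1. Here G1 replicate 4, an array without the spike-ins, was alone far below, and without replicate 4 the difference was -0.0029.

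Rpl22, which is dispensable for general translation, had probe sets on both sides of 0. Its representative differed by 0.04 and another by 0.18. The third gave -0.57, with G0 at 0.61, 0.01, 0.02 and -0.01 and G1 at 0.02, -0.52, -0.62 and -0.55. On that probe set 3 of 4 G1 arrays lay below every G0 array, and G1 replicate 1 lay among the G0 arrays. Its unadjusted p of 0.0711 (limma) was the lowest of the core probe sets, with an adjusted p of 0.736.

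The small subunit held both the highest and the lowest core gene. Rpsa was at -2.53, -0.65, 1.06 and -0.55 in G0 and at -0.13, 0.54, 0.13 and 1.55 in G1. G0 replicate 1 was far below all other arrays, and the arrays without the spike-ins, G0 replicate 3 and G1 replicate 4, were the 2 highest. The difference was 1.19 with a 95% interval of -0.51 to 2.89 and an adjusted p of 0.818 (limma). It was 0.89 without replicate 4, 0.60 without G0 replicate 1 and 1.87 without G0 replicate 3. The second Rpsa probe set gave 0.16, with a spread within groups of 0.17 in place of 1.16.

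Rps3, a protein of the mRNA entry channel, had the lowest difference, -0.50, with a 95% interval of -2.08 to 1.08. It was at -0.11, -1.02, 2.11 and 0.28 in G0 and at -0.82, 0.11, -0.72 and 0.68 in G1. G0 replicate 3 was the highest of all arrays by more than 1 log2 unit, and the difference was 0.18 without it. The other 2 probe sets of Rps3 gave -0.13 and 0.13.

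Rps20 had the lowest p of the 50 genes, 0.0875 (limma, unadjusted), with a difference of -0.45 and a 95% interval of -0.97 to 0.08. It was at 0.29, -0.03, -0.01 and 0.49 in G0 and at -0.51, -0.55, 0.02 and 0.01 in G1. G1 replicates 1 and 2 were low, and G1 replicates 3 and 4 lay among the G0 arrays. Of its other 3 probe sets, 1 gave -0.35 and the others 0.02 and 0.10, so the direction was not shared.

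Rps24, Rps27 and Rps6 were also lower in G1 by their representative probe sets without passing the test. Rps24, a protein mutated in Diamond-Blackfan anaemia, differed by -0.47, and G1 replicate 1 was lowest at -1.50. Without that array the difference was -0.12. Its 6 probe sets ran from -0.55 to 0.15. Rps27 differed by -0.39 on 1 probe set, and its highest array was G0 replicate 2 at 0.94, where the others ran from -0.36 to 0.35. Without that array the difference was -0.17. Rps6, the protein that S6 kinases phosphorylate after serum, was at 0.06, 0.07, -0.13 and 0.22 in G0 and at -0.05, 0.03, -0.03 and -0.29 in G1. Its difference was -0.14 with a 95% interval of -0.61 to 0.32, and the groups overlapped. A second Rps6 probe set gave -0.60, from 0.06, -0.36, 0.63 and 0.71 in G0 and -0.72, -0.63, -0.01 and 0.01 in G1.

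Rps16, Rps18 and Rps19 had positive differences. Rps16 was measured by 1 probe set, at -0.70, -0.47, -0.53 and 3.56 in G0 and at 0.58, 0.47, -0.70 and 4.13 in G1. Replicate 4 of each group, the labelled second batch, was higher than every other array by about 3 log2 units or more. The lowest value was the same number on G0 replicate 1 and G1 replicate 3. The difference of 0.66 had a 95% interval of -2.46 to 3.77, from a fit with a trend of the variance on the mean value. In centred values the high arrays raise that mean. The adjusted p was 0.973 with the trend and 0.798 without it (limma). On the 6 arrays with spike-ins, which keep G0 replicate 4 and leave out G1 replicate 4, the difference was -0.68. In labelled batch 1 alone, which leaves out both, it was 0.68. Among the core probe sets, that of Rps16 was the only 1 at least 2 log2 units above the other 6 arrays on both arrays of the labelled second batch. On the whole array 8 probe sets had this pattern. On G0 replicate 3 and G1 replicate 4, the arrays without the spike-ins, 240 probe sets had that pattern, none of them core. Every other pair of a G0 and a G1 array had 2 to 18 such probe sets. Rps18 differed by 0.42, while its 6 probe sets ran from -0.23 to 0.42. It was 0.18 without replicate 4, 0.20 without G0 replicate 1 and 0.82 without G0 replicate 3. Rps19, the gene most often mutated in Diamond-Blackfan anaemia, differed by 0.16 with a 95% interval of -0.31 to 0.62. It was at -0.27, 0.12, -0.21 and -0.09 in G0 and at 0.09, 0.09, -0.01 and 0.01 in G1, where the G1 arrays lay close together inside the G0 range.

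Different probe sets of a gene often disagreed. Of the 43 core genes, 22 had more than 1 probe set, and 11 of these had differences of both signs. The probe sets of 10 genes spanned less than 0.25. The widest spans were 1.03 in Rpsa, 0.76 in Rpl22, 0.70 in Rps24, 0.65 in Rps18 and 0.63 in Rps3. The narrowest was 0.01 in Rps28, whose 3 probe sets all lay near 0.14. Many ribosomal protein genes have near-identical processed pseudogenes, so which copies a probe set reads is uncertain, above all for those with the suffix _x_at, whose probes can match other sequences.

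**Figure D3:**
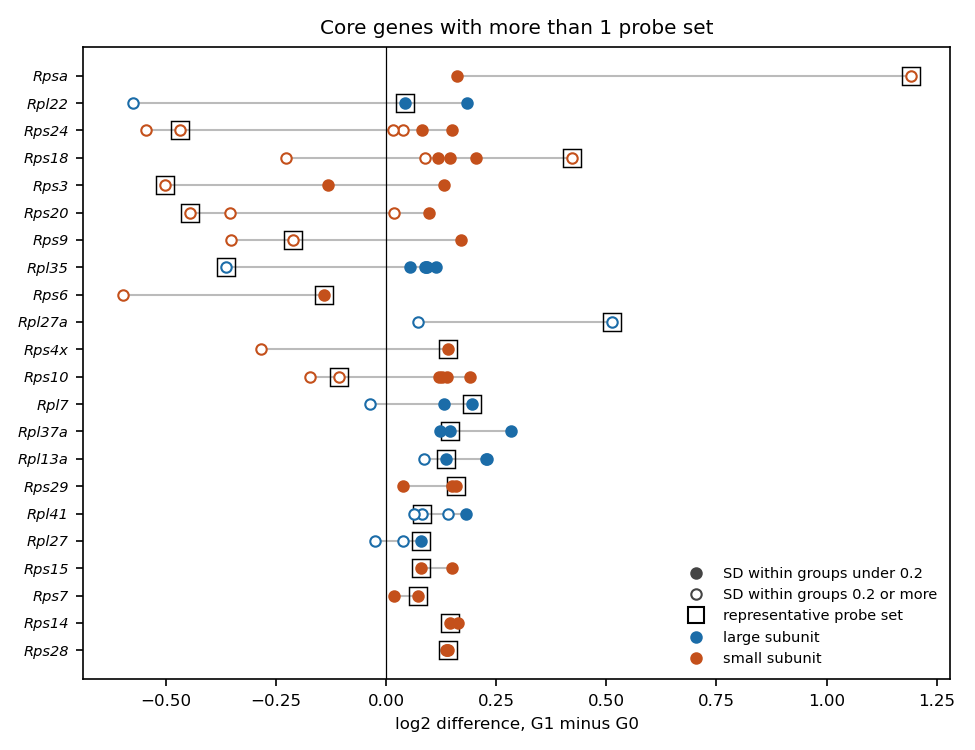
Each row is 1 of the 22 core genes with more than 1 probe set, and each circle is the G1 minus G0 difference of a probe set in log2 units, filled where the SD within groups is under 0.2 and boxed where it represents the gene. The filled circles lie between -0.14 and 0.28, and the far circles of Rpsa, Rpl22, Rps24, Rps18 and Rps3 are open.

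The core genes varied little within groups. The median SD within groups was 0.17 for core genes and 0.64 for all genes, and the core median lay at percentile 7.75 of all genes. A low spread was not particular to the core genes. The median SD was 0.17 for the probe sets shared with other genes and 0.19 for mitochondrial ribosomal proteins. It was 0.19 for other TOP mRNAs, 0.21 for regulators of translation and 0.27 for chaperones and assembly partners. An SD under 0.2 was found for 57 of the 95 core probe sets (60.0%), against 9.27% of all probe sets. These 57 covered 35 genes. Their differences ran from -0.14 (Rps6) to 0.28 (Rpl37a), with a median of 0.14, or 1.10-fold. Of the 57, 55 were above 0, where 45% of all probe sets, of any spread, were. The 57 share the same 8 arrays and several share a gene, so they are not independent of each other. The 95% intervals of the 57, which the choice by SD keeps narrow, reached 0.82 at the farthest bound. The other 38 core probe sets had differences from -0.60 to 1.19 with a median of 0.01, and 20 of 38 were above 0. Probe sets with a small spread were 22 of 26 with the suffix _a_at, 25 of 38 with _x_at, 2 of 3 with _s_at and 8 of 28 with the plain suffix _at. The plain suffix was preferred as a gene's representative. The centred values do not give the signal, so the spread could not be set against it.

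**Figure D4:**
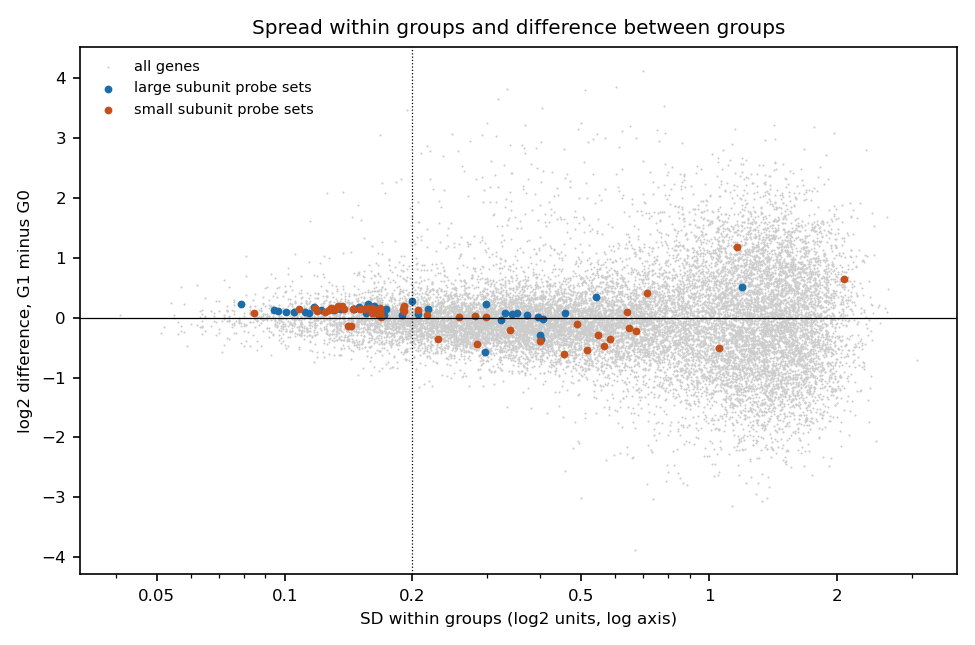
Each of the 95 core probe sets is placed by its SD within groups in log2 units on a log axis and by its G1 minus G0 difference, over all 18193 genes in grey, with a dotted line at 0.2. The 57 core probe sets left of the line lie between -0.14 and 0.28, and the extremes, such as Rpsa at 1.19, lie to the right of it.

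The core genes followed each other across the arrays to unequal degrees. The correlation of each core gene with the median of the other core genes over the 8 arrays had a median r of 0.60. It was at least 0.8 for 11 genes, at least 0.5 for 24 and below 0 for 10. The highest was 0.95 for Rps14, a protein at the platform of the small subunit, followed by 0.94 for Rpl4 and 0.92 for Rpl13a. The lowest were -0.66 for Rps20, -0.60 for Rps9 and -0.57 for Rps6. These points share the same 8 arrays with their scaling and batches, and the correlations are given as a description.

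The paralogs and genes of similar name also gave no call. Rpl22l1, the paralog of Rpl22, differed by 0.03, and Rpl39l, known from testis, by 0.03. Rpl7l1 differed by 0.15, Rps27l, a target of p53, by 0.08, and Rps19bp1, which binds Rps19 and is no ribosomal protein itself, by 0.16. Rps4l differed by -0.34 with an SD within groups of 0.65. It was at -0.78 without replicate 4, -0.12 without G0 replicate 2 and close to 0 (-0.0003) without G1 replicate 1. Rpl3l, the paralog of Rpl3 found in striated muscle, was at -0.92, 0.29, -0.28 and -0.54 in G0 and at -3.29, 1.30, 1.21 and 1.71 in G1. G1 replicate 1 was the lowest array and the other 3 G1 arrays were the highest. The difference was 0.60 with a 95% interval of -1.91 to 3.11, and 1.77 without G1 replicate 1 (adjusted p of 0.439, limma). Without replicate 4 it was 0.05.

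Related gene lists also held no gene past the threshold. Their counts stand beside 0.522% of all genes past it and 44.7% above 0, and with lists of this size a count of 0 is near that share. The 110 probe sets shared with other genes had a median difference of 0.13, 88 of them above 0 and 0 past the threshold. Of the mitochondrial ribosomal proteins, a separate set made for the mitochondrial ribosome, 0 of 76 passed, with a median of 0.07 and 50 above 0 (65.8%). At an unadjusted p under 0.05 there were 2, against 8.07% of all genes, and groups did not overlap for 4, against 7.07%. Of other TOP mRNAs, 23 of 26 listed genes were measured and 0 passed, with a median of 0.09 and 15 above 0. Eef1a1, the factor that brings tRNA to the ribosome, differed by 0.15, and Eef2, which moves the ribosome along, by 0.07. Eif3e, a subunit of the initiation factor eIF3, differed by -0.48. Npm1, a nucleolar chaperone, differed by 0.24.

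Regulators of translation and assembly gave no call either. Of the regulators, 17 of 19 were measured and 0 passed (0.522% of all genes), with a median of 0.06 and 10 above 0 (58.8%, against 44.7% of all genes). Mtor, the kinase of mTORC1, differed by -0.34 (95% interval -1.05 to 0.38), and Larp1 by 0.11 (-0.40 to 0.62). Of the chaperones and assembly partners, 17 of 18 were measured and 0 passed, with a median of -0.05 and 6 above 0 (35.3%), beside the same shares of all genes. Grwd1, a chaperone of Rpl3, differed by 0.27, and Nmd3, which carries the large subunit out of the nucleus, by -0.29. Genes of these lists without a probe set of their own were not analysed here.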

How the data were processed

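The authors deposited 1 table of log2 values per probe set for the 8 arrays. MAS5 is named in the submitters' processing notes. The log base, the scaling and the centring are not given in the sources used here; each probe set's median was 0, and the base was taken as 2. Centring leaves no intensity, so no filter on dim probe sets was possible. Symbols came from GEO's platform annotation, updated through Entrez identifiers: 34945 probe sets had 1 symbol, 932 several and 9160 none, and 64 were controls.

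G1 was compared with G0 in limma 3.58.1 (R 4.3.3), with the labelled batch as covariate. The fit used a trend of the variance on the mean value and had 5 residual degrees of freedom. A check on simulated data had independent noise, no batch effect and changes of 1 log2 unit or more. It does not bear on smaller differences or on outlying arrays. A gene was represented by 1 probe set (suffix order _at, _a_at, _s_at, _x_at, then lowest number). SDs are within groups and intervals are limma's at 95%. Limma moderates each variance toward that of probe sets of similar mean value, so an interval can be wider than a gene's own SD implies. The number of arrays limits the precision. Named genes were the 6 highest and 6 lowest core differences, genes with a set role (stalk, Rpsa, Rps6, Rpl11, Rps3, Rps19, Rpl13a, Rpl22), the paralogs, and the 5 widest spans among probe sets. Genes that other statements single out were chosen after their values were seen. Members, lists and tests were chosen with earlier results of these data known. Alternatives changed the batch, arrays, scaling, probe set rule, trend, weights and spread filter.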

Additional observations from a re-analysis of the deposited data

Results flagged for a closer look

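In 6 of 60 groups of 4 arrays, 1 array lay far from the others by Dixon's criterion, which chance meets in about 1 in 20 groups. Most groups were those of the named genes, some of them chosen for extreme differences or wide spans in these data. The count can therefore not be set against that rate. Rps16 in G0 stood at 3.56 on replicate 4, where the others ran from -0.70 to -0.47. Rpl3l in G1 stood at -3.29 on replicate 1, with the others from 1.21 to 1.71. Rpl35 in G1 stood at -1.09 on replicate 2, with the others from -0.13 to 0.03. Rpl39 in G1 stood at 0.66 on replicate 3, with the others from -0.02 to 0.06. Rps24 in G0 stood at -0.54 on replicate 1, with the others from 0.12 to 0.25. Rps27 in G1 stood at 0.35 on replicate 2, with the others from -0.36 to -0.25.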

How the results depend on the processing

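The count of ribosomal protein genes past the threshold was 0 under all 21 alternatives. The median difference over core genes stayed positive in all of them, and ran from 0.05 to 0.17 when 1 array at a time was left out. In the same way, the large subunit median ran from 0.08 to 0.18, the small subunit median from 0.0367 to 0.1549, and large minus small from 0.00 to 0.04. In labelled batch 1 alone the small subunit median moved to 0.0367, and leaving out replicate 4 of either group gives the same values by construction. The probe set with the smallest spread turned large minus small to -0.01. On the 6 arrays with spike-ins Rps16 turned to -0.68. Those arrays keep its high G0 replicate 4 and leave out its high G1 replicate 4, and labelled batch 1 alone gave 0.68. The choice of the probe set with the smallest spread also moved Rpl35 to 0.11, Rps20 to 0.10 and Rps24 to 0.15, each of the other sign. The mean of all probe sets moved Rps6 to -0.37.

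With the replicate number as a block, 0 of the 50 genes passed and the core median was again 0.13, while the count over all genes went from 95 to 0. The deviations of same-numbered arrays correlated at 0.07, 0.11, -0.14 and -0.14, so the numbers as titled were not taken to pair the samples. G0 replicates 1 and 2 correlated highest with the G1 arrays of their own number. G0 replicate 3 did so with G1 replicate 4, and G0 replicate 4 with G1 replicate 3 (0.10). A block with G0 replicates 3 and 4 exchanged was not fitted, and whether their numbers match those of G1 was not tested. Among all pairs of a G0 and a G1 array, the highest correlation was 0.31. That pair was G0 replicate 3 and G1 replicate 4, the arrays without the spike-ins. Over all genes the count ran from 0 to 183 across alternatives. It was 28 without G0 replicate 1, 67 without G0 replicate 3 and 0 without any other single array. At an unadjusted p under 0.05, Rpsa and Rps18 appeared without G0 replicate 3 (8.92% of all genes), Rpl3l without G1 replicate 1 (6.96%) and Rps20 without G1 replicate 3 (7.06%), so 1 or 2 of 50 were below the share of all genes. Of 544 values of 26 named genes, 14 changed sign and 0 passed the threshold. With 4 arrays a group and limma's moderated variances, changes below about 0.5 log2 units were not resolved for most of these genes. Over the core genes the median SE was 0.21, beside a median SD within groups of 0.17.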
